A study of Mus musculus with 2 samples.

Results

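The genes described here are the proteases and serpins of sorted tuft cells, chosen by symbol from a count table of 17134 genes. The symbol rule took Prss, Tmprss, Klk, Mcpt, Gzm, Cts, Mmp, Adam, Adamts, Cpa and Serpin genes and left out Mmp7, which gave 144 genes. Of these, 19 were Prss, 12 Tmprss, 10 Klk, 5 Gzm or Mcpt, 13 Cts, 12 Mmp, 17 Adam, 18 Adamts, 5 Cpa and 33 Serpin genes. Cells positive for EpCAM and SiglecF were taken by sorting from small intestine of naive mice, and RNA was sequenced from 1 library of each genotype. The Spib_KO library came from Spib fl/fl mice with Villin-cre, in which the Cre recombinase is expressed in the intestinal epithelium. The WT library was made from mice whose Spib was not floxed, and they carried Villin-cre as well. The labels give neither age, strain nor the number of mice behind a library.

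Proteases cut peptide bonds, and serpins are inhibitors that trap serine or cysteine proteases by a one-way change of shape. Cathepsins work mainly in lysosomes, Tmprss and several Prss enzymes sit on or leave the epithelial surface, and granzymes and mast cell proteases are stored in the granules of leukocytes. Adam and Mmp enzymes are zinc metalloproteases that shed membrane proteins or cut matrix. In the gut epithelium such enzymes process surface proteins, mucus and growth factor precursors, and tuft cells are its rare chemosensory cells.

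Reads on genes totalled 17228665 in Spib_KO and 17925421 in WT. Spib, the deleted transcription factor gene of the ETS family, had 48 reads in the Spib_KO library and 6266 in the WT library, a log2 ratio of -6.95. All 10 tuft markers listed were detected in both libraries, and their summed level was 18202 CPM in Spib_KO and 19017 CPM in WT. CPM is the read count scaled to a common library size. With 1 library per genotype there was no replicate check and no test, and each difference below describes these libraries. A gene was measured if it reached 5 CPM and 30 reads in the Spib_KO or the WT library. A gene counted as higher or lower in Spib_KO if the whole 95% interval of its log2 ratio, Spib_KO over WT, lay at least 1 from 0, which is a 2-fold difference. These intervals, and all others below, cover counting error only, because 1 library per genotype gives no spread between animals. Reads copied by PCR, with no molecular identifier to tell them apart, do not each stand for a molecule. The intervals may thus be too narrow even for counting error.

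Most measured protease and serpin genes differed little between the libraries, and a few of low level in WT were far higher in Spib_KO. Of the 144 genes, 38 were measured and 106 were not. Of the measured genes 4 (10.5%) were called higher, where 2.33% of all 10707 measured genes were. Another 2 (5.26%) were called lower, where 2.18% of all measured genes were. The higher genes were Prss53, Adam1b, Mmp23 and Ctsf, and the lower genes were Gzma and Adam22. The median log2 ratio was -0.02 over the measured members, with quartiles of -0.24 and 0.27. Over all measured genes it was 0.01, with quartiles of -0.26 and 0.28. Of the measured members 26, or 68.4%, lay within 1.5-fold, where 79.5% of all measured genes did. Of the 4 higher genes, Prss53 and Adam1b overlap another gene of the table by their GENCODE spans, and Mmp23 does so as well by its RefSeq span. Without overlapping members 2 were left by GENCODE, Mmp23 and Ctsf, and 1 by RefSeq, Ctsf. The Adam1b call also rests on how reads were divided with its paralogue Adam1a.

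**Figure D1:**
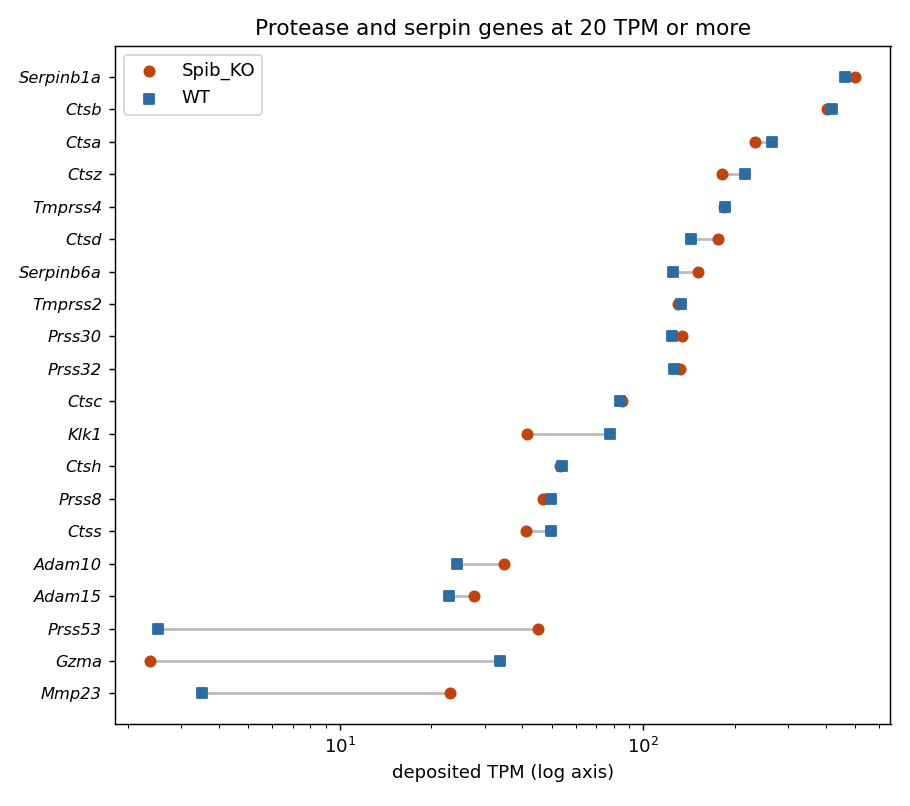
Deposited TPM, the authors' level per transcript length, on a log axis for the protease and serpin genes at 20 TPM or more in at least 1 library, with circles for Spib_KO and squares for WT. Serpinb1a and Ctsb lead in both libraries, and Prss53, Gzma and Mmp23 are the genes whose symbols lie furthest apart.

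Levels of different genes are compared here in TPM, which the authors scaled to gene length. The 144 genes summed to 2751 TPM in Spib_KO and 2739 TPM in WT, or 0.28% and 0.27% of all transcripts. In each library 10 of them reached 100 TPM. The 8 most abundant genes held 71.3% of the summed TPM in Spib_KO and 71.2% in WT. At the other end, 99 genes in Spib_KO and 94 in WT were below 1 TPM.

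A serpin had the highest level of the whole group, although few of the family were expressed. Serpinb1a, an intracellular inhibitor of granule serine proteases, had 499.6 TPM in Spib_KO and 461 TPM in WT, the highest level of all 144 genes in both libraries. Its read count was 9855 in Spib_KO and 9347 in WT, a log2 ratio of 0.14 (95% interval 0.10 to 0.19). Serpinb6a, another intracellular serpin, had 151 TPM in Spib_KO and 125 TPM in WT, a log2 ratio of CPM of 0.30 (0.22 to 0.39). This gene shares exon bases with Nqo2 and Ripk1 on the other strand, and unstranded reads do not separate them. Together Serpinb1a and Serpinb6a made up 98.0% of the serpin TPM in Spib_KO and 96.8% in WT. Serpini1, which encodes neuroserpin, an inhibitor of tissue plasminogen activator, had 7.68 TPM in Spib_KO and 8.88 TPM in WT, a log2 ratio of CPM of -0.19 (-0.41 to 0.03). These were the only 3 measured serpins of 33, and 0 of them were called.

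Serpin genes were detected in smaller number in Spib_KO than in WT. Of the 33 serpin genes, 17 had reads in Spib_KO and 30 in WT. Of all genes in the table, 90.1% had reads in Spib_KO and 93.9% in WT. Several serpins at 0 reads in Spib_KO, such as Serpina12 and Serpina3n, had only 1 read in WT. Serpina1e, a member of the alpha-1-antitrypsin group, had 0 reads in Spib_KO and 24 in WT. Serpina10, an inhibitor of coagulation proteases, had 0 reads in Spib_KO and 18 in WT. Members of the alpha-1-antitrypsin group are near-identical, so the division of reads among them is uncertain. Serpinb6b had 0 reads in Spib_KO and 17 in WT, whereas Serpinb9g had 14 reads in Spib_KO and 0 in WT. Against a floor of 3 reads in the library at 0, Serpina1e was at least 7.63-fold lower and Serpinb9g at least 4.89-fold higher in Spib_KO. None of these genes reached 5 CPM in either library.

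Cathepsins formed the most abundant class, with 1206 TPM in Spib_KO and 1253 TPM in WT, and 9 of 10 measured members were not called. Ctsb, a lysosomal cysteine protease, had 403 TPM in Spib_KO and 418 TPM in WT, with a log2 ratio of CPM of -0.06 (-0.10 to -0.02). Ctsa, a lysosomal serine carboxypeptidase that also protects beta-galactosidase and neuraminidase, had 233 TPM in Spib_KO and 266 TPM in WT, a log2 ratio of CPM of -0.17 (-0.22 to -0.12). Ctsz, a cysteine carboxypeptidase, had 182 TPM in Spib_KO and 216 TPM in WT, a ratio of -0.22 (-0.29 to -0.15). The other measured cathepsins apart from Ctsf were Ctsc, Ctsd, Ctsh, Ctsl, Ctso and Ctss, with log2 ratios between -0.24 and 0.34. On the other strand Ctsb shares 774 exon bases with Fdft1, and Ctsa shares 495 with Pltp and 324 with Neurl2. Ctsd shares 808 exon bases with Gm49369 on its own strand. Reads on these shared bases cannot be assigned with certainty, and the estimated counts of Ctsb and Ctsa are not whole.

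Ctsc was the cathepsin for which reads and TPM differed most. It encodes dipeptidyl peptidase I, the enzyme that activates granule serine proteases. Its reads numbered 4626 in Spib_KO and 3832 in WT, a log2 ratio of CPM of 0.34 (0.28 to 0.40). Its deposited TPM was 85.3 in Spib_KO and 83.9 in WT, a log2 ratio of 0.02. The gene length implied by reads over TPM was thus larger in Spib_KO by 0.30 on the log2 scale, after the median over 10472 genes was set to 0. The central 95% of those genes lay between -0.14 and 0.18, and the other 35 protease and serpin genes with such a value lay between -0.10 and 0.07.

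Ctsf, a cysteine protease of the lysosome, was the cathepsin called higher. It had 278 reads in Spib_KO and 50 in WT, which is 16.2 CPM (95% Poisson interval 14.4 to 18.2) in Spib_KO and 2.78 CPM (2.06 to 3.66) in WT. The log2 ratio was 2.53 (2.11 to 3.01), or 5.78-fold higher. In TPM it stood at 13.9 in Spib_KO and 2.46 in WT, so that it ranked 20th among the 144 genes in Spib_KO and 36th in WT. Ctsf (gene 56464) lies on chromosome 19 from 4855165 to 4860918 of GRCm38.p6, and no other annotated gene overlaps it. Its nearest gene downstream in the table, Zdhhc24, which encodes a protein of the palmitoyltransferase family, was also called higher, with 433 reads in Spib_KO and 144 in WT and a log2 ratio of 1.65 (1.38 to 1.94). The 2 genes lie 17749 bases apart.

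The membrane-bound serine proteases Tmprss4, Tmprss2 and Prss8 differed little. Tmprss4 had 185 TPM in Spib_KO and 186 TPM in WT, with a log2 ratio of CPM of 0.01 (-0.05 to 0.07). Tmprss2 had 130 TPM in Spib_KO and 134 TPM in WT, with a ratio of -0.03 (-0.08 to 0.03). Both are type II transmembrane proteases of epithelia, and they were the only measured members of 12 Tmprss genes. Tmprss15, which encodes the enteropeptidase that activates trypsinogen, had 59 reads in Spib_KO and 71 in WT and was not measured. Of the other Tmprss genes that were not measured, Tmprss5 had 1 read in Spib_KO and 21 in WT, Tmprss11e 0 in Spib_KO and 18 in WT, and Tmprss13 0 in Spib_KO and 15 in WT. Prss8, the membrane-anchored protease prostasin, had 46.9 TPM in Spib_KO and 49.6 TPM in WT, a log2 ratio of CPM of -0.06 (-0.18 to 0.07).

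Prss30 and Prss32 were the leading Prss genes, and together they held 68.8% of the Prss TPM in Spib_KO and 78.3% in WT. Prss30, a serine protease known from the distal intestine, had 134 TPM in Spib_KO and 125 TPM in WT, with a log2 ratio of CPM of 0.14 (0.05 to 0.22). Prss32 had 132 TPM in Spib_KO and 126 TPM in WT, with a ratio of 0.09 (0.00 to 0.17). Both lie in a cluster of serine protease genes on chromosome 17. Prss41, also in this cluster and overlapping the end of Prss32 by 59 exon bases, had 42 reads in Spib_KO and 11 in WT. Its log2 ratio was 1.95 (1.02 to 3.11), but it did not reach 5 CPM. Prss33, the next gene of the cluster, had 8 reads in Spib_KO and 0 in WT.

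Prss53 had the highest log2 ratio of the measured genes. It encodes a protein of the polyserase type, with more than 1 serine protease domain in a chain. It had 1443 reads in Spib_KO and 83 in WT, which is 84.1 CPM (79.8 to 88.5) in Spib_KO and 4.61 CPM (3.67 to 5.72) in WT. The log2 ratio was 4.18 (3.87 to 4.53), or 18.1-fold higher. In TPM it ranked 14th of the 144 genes in Spib_KO, at 44.99 TPM, and 35th in WT, at 2.51 TPM.

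The Prss53 reads cannot be fully assigned to the gene, because it overlaps others and strand was not kept. Prss53 (gene 330657) lies on chromosome 7 from 127885444 to 127892965. It shares 156 exon bases, or 7.31% of its exons in the GENCODE M21 annotation, with the zinc finger gene Zfp646 on the other strand. Zfp646 itself had 340 reads in Spib_KO and 332 in WT, a log2 ratio of 0.10 (-0.12 to 0.33). The estimated counts of Prss53 and Zfp646 are not whole but add up to whole numbers, 1783 in Spib_KO and 415 in WT, and the summed reads had a log2 ratio of 2.17 (2.02 to 2.33). A second annotated gene on the same strand, Gm21974, covers 76.7% of the Prss53 exon bases and was not analysed here. The nearest genes of the table on either side that do not overlap it, Zfp668 and Vkorc1, had ratios of -0.83 (-1.10 to -0.56) and 0.37 (0.19 to 0.54). Prss36, a polyserase gene on the same chromosome, had 86 reads in Spib_KO and 102 in WT, a ratio of -0.18 (-0.61 to 0.25).

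Prss23, a secreted serine protease gene, was just outside the limit. It had 327 reads in Spib_KO and 141 in WT, or 19.1 and 7.84 CPM, and a log2 ratio of 1.28 (0.99 to 1.58). By deposited TPM it was called higher, with 13.3 TPM in Spib_KO and 5.73 TPM in WT. Klk1, the tissue kallikrein that releases kinins, was the 1 measured gene of 10 in its class. It had 426 reads in Spib_KO and 815 in WT, a log2 ratio of -0.87 (-1.04 to -0.70), and its level was 41.6 TPM in Spib_KO and 77.4 TPM in WT. Its near neighbour Klk1b5 had 8 reads in Spib_KO and 36 in WT, and the pair shared reads, since only their summed estimated counts are whole, 434 in Spib_KO and 851 in WT, a log2 ratio of -0.90 (-1.07 to -0.73). Neither kallikrein was called.

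**Figure D2:**
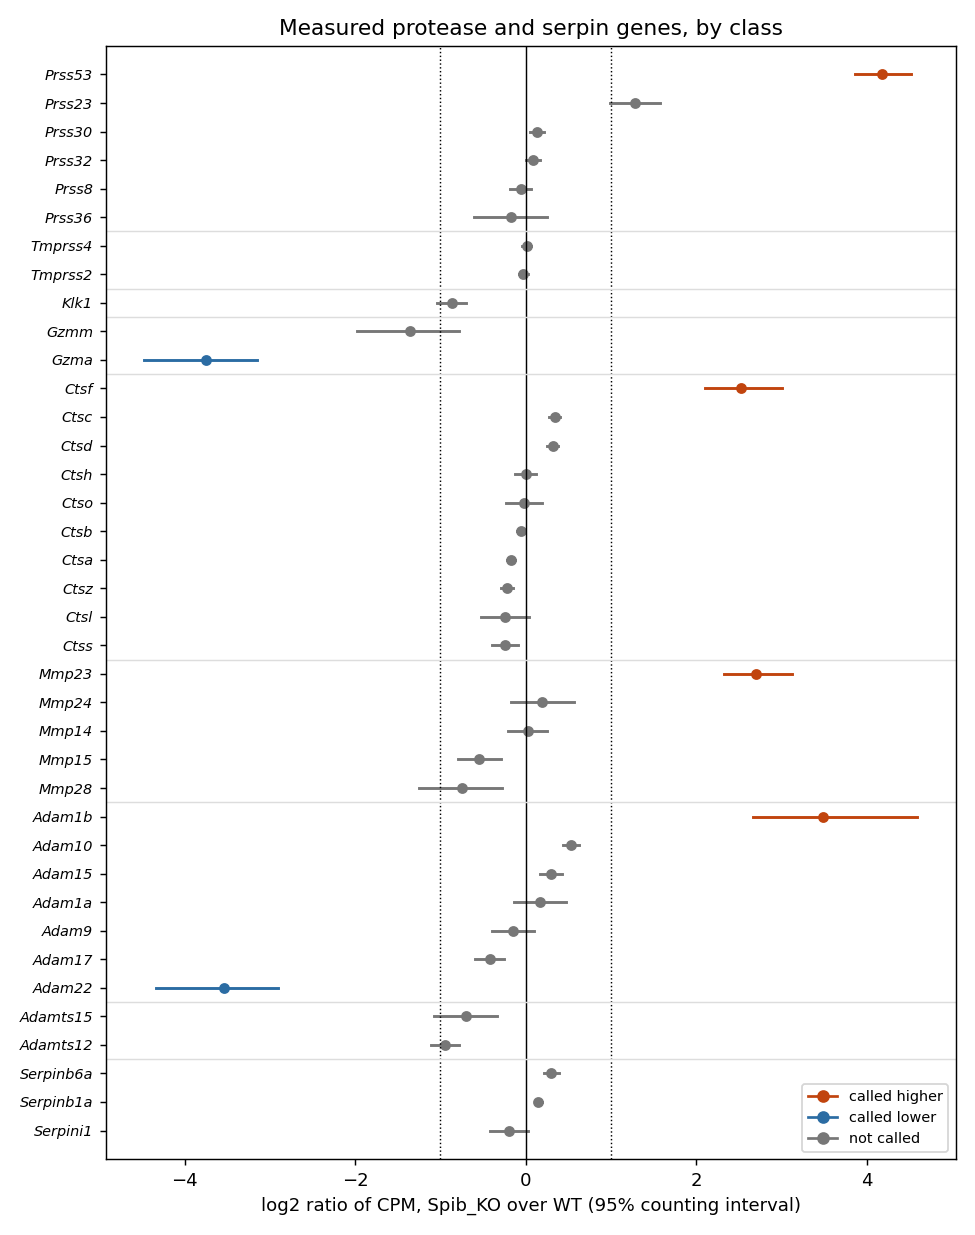
Log2 ratio of CPM, Spib_KO over WT, for the 38 measured genes, grouped by class from Prss at the top to Serpin at the bottom, with bars for the 95% counting interval and dotted lines at a 2-fold difference. The 4 genes called higher and 2 called lower stand past the dotted lines, and most others lie close to 0.

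Among metalloproteases, Adam10, Adam17 and Adam15 stayed inside the 2-fold limit, and the genes that were called had low levels in 1 of the libraries. Adam10, the sheddase that cuts Notch receptors and E-cadherin, had 34.8 TPM in Spib_KO and 24.3 TPM in WT, a log2 ratio of CPM of 0.53 (0.44 to 0.63). Adam17, which releases TNF and ligands of the EGF receptor, had 8.12 TPM in Spib_KO and 11.0 TPM in WT, a ratio of -0.42 (-0.59 to -0.25). Adam15 had 27.8 TPM in Spib_KO and 22.9 TPM in WT, a ratio of 0.30 (0.17 to 0.43). The ratio of Adam10 was above 0 and that of Adam17 below it, both outside their counting error and inside the 2-fold limit.

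Mmp23, a matrix metalloprotease held in the membrane by its amino end, was called higher. It had 394 reads in Spib_KO and 63 in WT, which is 23.0 CPM (20.7 to 25.3) in Spib_KO and 3.50 CPM (2.69 to 4.48) in WT. The log2 ratio was 2.70 (2.33 to 3.12), or 6.51-fold higher, and the level was 23.1 TPM in Spib_KO and 3.52 TPM in WT. Mmp23 (gene 26561) lies on chromosome 4 from 155650655 to 155654539, with Cdk11b on one side and Mib2 on the other, which had log2 ratios of -0.19 and 0.35. On these RefSeq positions its span shares 72 bases with Mib2, while on the shorter GENCODE span they do not overlap. The deposited counts of Mmp23 are whole in both libraries. The other measured matrix metalloproteases were not called. Mmp14, an activator of Mmp2 at the cell surface, had 306 reads in Spib_KO and 316 in WT, and the membrane-type gene Mmp15 had 219 in Spib_KO and 335 in WT.

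Adam1b and Adam22 moved in opposite directions. Adam1b, known from sperm, had 123 reads in Spib_KO and 11 in WT, or 7.17 CPM (5.96 to 8.55) and 0.61 CPM (0.31 to 1.09), with 3.49 (2.66 to 4.59) as the log2 ratio. Tmem116 spans it on the other strand and shares no exon bases with it. Tmem116 had 1960 reads in Spib_KO and 1138 in WT, a ratio of 0.85 (0.75 to 0.96). Its paralogue Adam1a had 192 reads in Spib_KO and 179 in WT. The estimated counts of Adam1a and Adam1b are not whole but add up to whole numbers, 315 in Spib_KO and 190 in WT, so the division of reads between this pair is uncertain. Their summed reads had a log2 ratio of 0.80 (0.53 to 1.07).

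Adam22, whose protein lacks protease activity and serves in mouse brain as a receptor for the secreted protein Lgi1, was called lower. It had 19 reads in Spib_KO and 238 in WT, which is 1.11 CPM (0.67 to 1.73) in Spib_KO and 13.2 CPM (11.6 to 15.0) in WT. The log2 ratio was -3.54 (-4.34 to -2.90), or 11.7-fold lower. Adam22 (gene 11496) lies on chromosome 5 from 8072347 to 8368312, and no gene of the table overlaps it. Its neighbours Sri and Dbf4 had ratios of -0.22 and 0.20. In TPM it reached 0.16 in Spib_KO and 2.29 in WT, below the 5 TPM that a call by TPM needs.

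**Figure D3:**
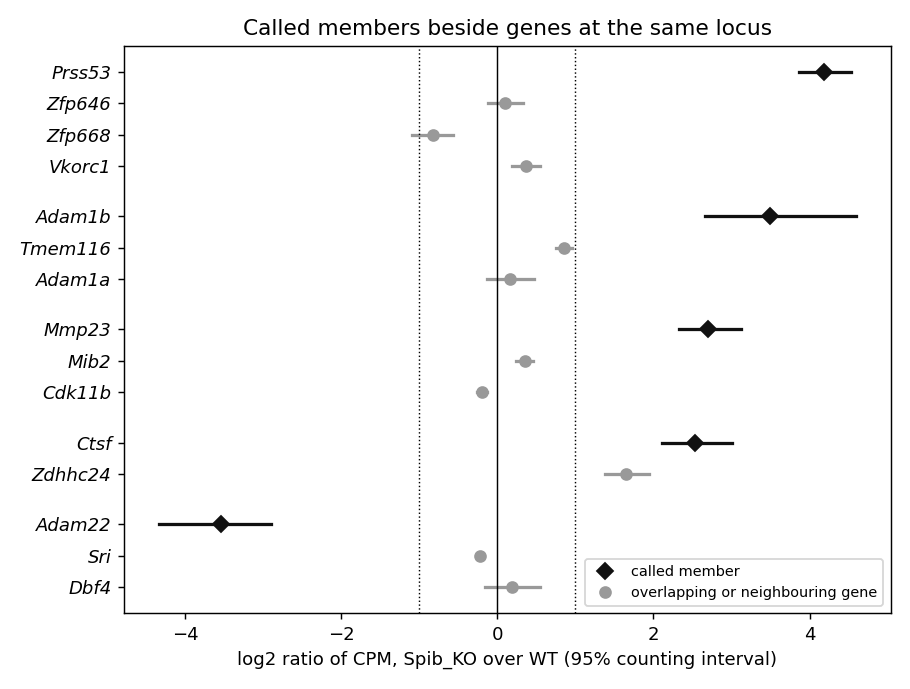
Log2 ratio of CPM, Spib_KO over WT, with 95% counting intervals for 5 called members (diamonds) and for the genes that overlap or neighbour them (circles), and dotted lines at a 2-fold difference. The circle of Zdhhc24 beside Ctsf lies past a dotted line, and the other circles lie inside the lines. The called member Gzma is not drawn. Of its neighbours, Snx18 had a log2 ratio of 1.21 (0.95 to 1.47) and was not called, and Gpx8 was not measured.

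Adamts genes, secreted metalloproteases of the matrix, were mostly near 0 reads. Only 2 of 18 were measured, and 0 were called. Adamts12 had 428 reads in Spib_KO and 865 in WT, a log2 ratio of -0.95 (-1.12 to -0.78), and Adamts15 had 98 in Spib_KO and 167 in WT, a ratio of -0.70 (-1.08 to -0.33). Adamts9 had 4 reads in Spib_KO and 41 in WT, a ratio of -3.14 (-5.23 to -1.82), but stayed under 5 CPM. The class as a whole summed to 5.70 TPM in Spib_KO and 10.6 TPM in WT.

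Of the 5 genes for granule proteases of leukocytes in the Gzm and Mcpt class, 2 were measured and 1, Gzma, was called lower. The 5 genes summed to 3.66 TPM in Spib_KO and 48.15 TPM in WT, of which Gzma held 2.37 TPM in Spib_KO and 33.65 TPM in WT. Gzma, a serine protease of cytotoxic lymphocytes, had 22 reads in Spib_KO and 317 in WT, which is 1.28 CPM (0.80 to 1.94) in Spib_KO and 17.6 CPM (15.7 to 19.7) in WT. Its log2 ratio was -3.75 (-4.48 to -3.16), or 13.5-fold lower. It ranked 34th of the 144 genes by TPM in Spib_KO and 16th in WT. Gzmm, which was not called, had 34 reads in Spib_KO and 92 in WT, a ratio of -1.35 (-1.98 to -0.79).

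The remaining granule genes lay under the measuring limit. Gzmb, which cleaves caspases in target cells, had 1 read in Spib_KO and 89 in WT, a log2 ratio of -5.84 (-11.7 to -3.89). Mcpt1, a chymase of mucosal mast cells, had 0 reads in Spib_KO and 59 in WT. Against a floor of 3 reads it was 18.8-fold lower, and the end of its counting interval nearest 0 was a log2 ratio of -3.89. Cpa3, the mast cell carboxypeptidase, had 0 reads in Spib_KO and 10 in WT, and no other Cpa gene passed 7 reads in either library. Serpinb9, the intracellular inhibitor of granzyme B, had 21 reads in Spib_KO and 57 in WT, a ratio of -1.35 (-2.17 to -0.63). Ctsw, a cathepsin of cytotoxic lymphocytes, had 18 reads in Spib_KO and 19 in WT.

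Several markers of lymphocytes were lower beside Gzma. Of 10 listed T cell and intraepithelial lymphocyte markers 9 were in the table, and they summed to 4.60 CPM in Spib_KO and 33.5 CPM in WT. The 3 measured ones, Cd7, Ccl5 and Itgae, were all called lower. Cd3g had 11 reads in Spib_KO and 61 in WT, Cd3d 0 in Spib_KO and 20 in WT, Cd3e 3 in Spib_KO and 9 in WT, Nkg7 1 in Spib_KO and 27 in WT, and Cd8a 17 in Spib_KO and 30 in WT, while Prf1 had 2 in Spib_KO and 0 in WT. In such bulk samples fewer cells of a type and less RNA per cell cannot be told apart, and the part of lymphocytes in the granzyme values was not tested. Mast cell markers were mostly higher in Spib_KO, where Mcpt1 and Cpa3 were lower, but apart from Kit none of these markers was measured. Kit had 327 CPM in Spib_KO and 85.0 CPM in WT, while the other 5 mast cell markers in the table summed to 4.49 CPM in Spib_KO and 1.72 CPM in WT. Of those 5, Cd200r3 had 50 reads in Spib_KO and 15 in WT, Hdc 24 in Spib_KO and 14 in WT, and Gata2 0 in Spib_KO and 2 in WT. The defining mast cell genes Ms4a2 and Tpsb2 had 2 reads and 1 read in Spib_KO and 0 in WT. The 7 myeloid markers summed to 21.4 CPM in Spib_KO and 30.6 CPM in WT. Of 3 that were measured, 1 was called lower and 0 higher, and their log2 ratios ran from -3.47 to 0.83. No B cell, stromal or endothelial marker was measured.

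**Figure D4:**
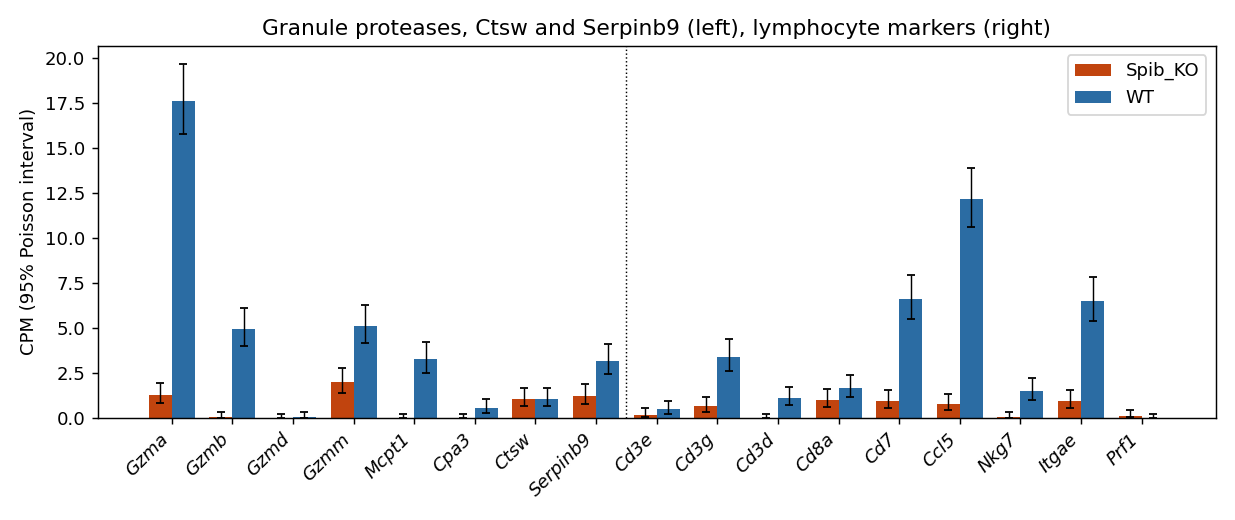
CPM with 95% Poisson intervals in Spib_KO (left bar of each pair) and WT (right bar), for the granule protease genes, Ctsw and Serpinb9 left of the dotted line and for 9 lymphocyte markers right of it. Gzma at 1.28 CPM in Spib_KO and 17.6 CPM in WT and Ccl5 at 0.76 CPM in Spib_KO and 12.2 CPM in WT have the tallest WT bars on their side of the line.

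Many members had only a few reads. Of the 144 genes, 93 had fewer than 30 reads in both libraries, and they held 306 reads in Spib_KO and 509 in WT in all. Of these 93 genes 30 had the higher CPM in Spib_KO and 63 in WT, which is 67.7% higher in WT. Among 4887 other genes with fewer than 30 reads in both libraries it was 54.9%. At least 1 read was found for 103 of the 144 genes in Spib_KO and 130 in WT, or 71.5% and 90.3%. Of the other genes it was found for 90.3% in Spib_KO and 93.9% in WT. These sets were not matched for level, and 70 of the 144 genes had under 10 reads in both libraries. Each of the 144 had reads in at least 1 library, so a gene at 0 in Spib_KO had reads in WT. Without the measuring limit, 6 of the 144 genes were called higher and 14 lower, where 3.47% and 4.18% of all genes were. At these depths a gene with a handful of reads in WT and 0 in Spib_KO does not show that the transcript was absent.

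Spi-B, the product of Spib, belongs to the ETS factors that bind a purine-rich element, the PU box. The sequences before the called genes are shown to give the letters around such elements. The RefSeq promoter table of GRCm38.p6 held 120 promoters for 105 of the 144 genes. The PU box core GAGGAA was searched on both strands in the 250 bases before each start. It was found in 22 of the 120 promoters, or 18.3%, against 23.3% of all 32851 promoters of that length. Of 7 promoters of the 6 called genes, 1 held it, that of Prss53, at 154 bases before the start. The 2 higher and the 2 lower genes furthest from 0 by their interval are printed 5′ to 3′ on the strand of the gene, with GAGGAA or its complement in capitals.
Prss53 (chr7:127890971-127891220, minus strand): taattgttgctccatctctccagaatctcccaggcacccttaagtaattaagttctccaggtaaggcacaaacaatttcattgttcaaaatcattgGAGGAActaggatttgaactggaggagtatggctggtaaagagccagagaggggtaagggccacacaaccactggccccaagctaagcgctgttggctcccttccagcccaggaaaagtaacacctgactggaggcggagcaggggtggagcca
Adam1b (chr5:121503436-121503685, minus strand): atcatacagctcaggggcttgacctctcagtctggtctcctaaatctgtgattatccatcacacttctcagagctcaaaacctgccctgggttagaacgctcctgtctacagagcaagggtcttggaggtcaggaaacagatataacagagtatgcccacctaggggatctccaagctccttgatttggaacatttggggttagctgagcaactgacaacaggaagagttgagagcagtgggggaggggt
Gzma (chr13:113100982-113101231, minus strand): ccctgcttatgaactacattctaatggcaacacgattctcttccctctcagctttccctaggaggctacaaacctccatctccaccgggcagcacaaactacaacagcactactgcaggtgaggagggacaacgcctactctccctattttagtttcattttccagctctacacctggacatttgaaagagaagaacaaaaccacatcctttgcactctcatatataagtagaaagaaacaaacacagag
Adam22 (chr5:8368161-8368410, minus strand): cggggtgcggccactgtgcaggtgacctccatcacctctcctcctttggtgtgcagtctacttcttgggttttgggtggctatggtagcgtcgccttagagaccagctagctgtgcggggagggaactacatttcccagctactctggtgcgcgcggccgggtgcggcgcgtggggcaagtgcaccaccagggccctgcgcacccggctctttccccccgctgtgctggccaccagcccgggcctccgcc
The Prss53 window lies inside the RefSeq span of the gene, before a start used by a shorter transcript. Part of the Adam22 window also lies inside the RefSeq span of its gene, which ends at 8368312. In the other windows printed, GAGGAA did not occur, which says only that these letters are not there.

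The wider proteolysis list held 81 genes that the symbol rule does not take, and 64 of them were in the table. Of 38 measured genes 1 was called higher, Cpe, and 2 were called lower, Spink1 and Capn8, which is 2.63% and 5.26% beside 2.33% and 2.18% of all measured genes, with a median log2 ratio of -0.17 beside 0.01 over all measured genes. Spink1, the pancreatic-type inhibitor of trypsin, had 3731 reads in Spib_KO and 16328 in WT, which is 217 CPM in Spib_KO and 907 CPM in WT, a ratio of -2.06 (-2.11 to -2.01). Capn8, a calcium-dependent cysteine protease known from the stomach, had 19 reads in Spib_KO and 91 in WT, a ratio of -2.16 (-2.99 to -1.47). Cpe, which trims prohormones, had 2740 reads in Spib_KO and 137 in WT, a ratio of 4.39 (4.14 to 4.65).

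Inhibitors of the membrane serine proteases were abundant and close in both libraries. Spint2, which inhibits matriptase and prostasin, had 1701 TPM in Spib_KO and 1561 TPM in WT, a log2 ratio of CPM of 0.15 (0.13 to 0.18), and it exceeded every serpin in TPM. Spint1 had 222 TPM in Spib_KO and 255 TPM in WT, a ratio of -0.20, and the matriptase gene St14 had 51.1 TPM in Spib_KO and 62.0 TPM in WT, a ratio of -0.28. Spink4, an inhibitor of the Kazal type, had 374 TPM in Spib_KO and 765 TPM in WT, a ratio of -0.88. F2rl1, the receptor that trypsin-like proteases activate by cleavage, had 118 reads in Spib_KO and 46 in WT, a ratio of 1.42 (0.92 to 1.95), and was not called.

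Markers of other epithelial cells moved beside some of these genes. The 6 Paneth cell markers summed to 969 CPM in Spib_KO and 2460.1 CPM in WT, and the 7 goblet cell markers to 1334 CPM in Spib_KO and 2126 CPM in WT. The 7 enteroendocrine markers summed to 33.2 CPM in Spib_KO and 133 CPM in WT, lower in Spib_KO where Cpe was higher. The brush border and secretory peptidases had 10 of 16 measured genes below 0 and a median log2 ratio of -0.20, and the 8 enterocyte markers had a median of -0.35, with 3 above 0. The summed enterocyte level was higher in Spib_KO, with 15686 CPM, against 13503 CPM in WT, of which Fabp1 held 10611 CPM in Spib_KO and 6968 CPM in WT. In TPM the enterocyte markers summed to 49206 in Spib_KO and 38881 in WT. The 10 tuft markers summed to 13459 TPM in Spib_KO and 13714 TPM in WT. The part of enterocytes and the other non-tuft cells in the protease and inhibitor values was not tested.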

How the data were processed

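TRIzol RNA of the sorted cells was turned into cDNA by a SMART-seq type amplification and into libraries by a transposase, per the labels' protocols; strand is lost in this chemistry. HISAT and Bowtie2 2.2.3 are named with build mm10, per the submitters' processing notes, and the counting program is not given in the sources used here. For each gene and library the authors deposited a count, a TPM and an FPKM value, per the file headers. The deposited counts are expected counts (18.6% of genes in Spib_KO and 19.0% in WT are not whole) and were rounded. FPKM was not used.

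Counts were scaled with TMM factors of edgeR 4.0.16 (R 4.3.3), and the log2 ratio took a prior count of 0.5. Intervals of a ratio are exact conditional binomial (Clopper-Pearson) intervals and those of a CPM exact Poisson intervals, at 95%. For 0 reads a fold was computed against a floor of 3 reads in that library. The procedure was tested on simulated data that varied by counting error alone. That test cannot check the effect of PCR copies, shared reads or spread between animals. DESeq2 1.42.0 size factors, total counts, other filters, call rules and deposited TPM were alternatives.

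The genes named are called members, the 3 most abundant measured members of each class, members with 30 reads in 1 library and 0 in the other, Zfp646, Spib and, of the wider list, its called and 3 most abundant genes. Others named were chosen after their values were seen. The members and lists were chosen with earlier results of these data known. Positions are from RefSeq, GRCm38.p6, the assembly of mm10, and exon overlaps from GENCODE M21.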

Additional observations from a re-analysis of the deposited data

How the results depend on the processing

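With 1 library per genotype, no spread between animals could be measured, and genes under 5 CPM carry too few reads for a firm ratio. No paired analysis was possible because each genotype has 1 library. Of 4 genes called higher and 2 called lower, all 6 were also called with DESeq2 size factors, total counts and a 4-fold limit. By the point estimate at 2-fold, 5 were higher, with Prss23 added, and 3 lower, with Gzmm added. The share of all genes called was computed only for the main rule and without the expression filter. The other counts given here thus cannot be set beside such a share. A minimum of 20 CPM left 2 higher (Prss53 and Mmp23) and 0 lower, from 23 genes tested. Without the expression filter 14 were lower and the median log2 ratio was -0.40, where the median over all genes without the filter was -0.01. Without the granule proteases 1 of 36 measured members was lower, Adam22. Members whose span overlaps another gene of the table were also left out, alternatives chosen after seeing the data. Then 2 of 26 were higher by GENCODE spans, Ctsf and Mmp23, and 1 of 27 by RefSeq spans, Ctsf. Deposited TPM, with a log2(value + 1) difference of 1 and a minimum of 5 TPM, called 4 higher and 2 lower of 31 members. Prss23 and Mcpt1 were called in place of Adam1b and Adam22, which were below 5 TPM. Of 136 values of 34 named genes under 4 alternatives, 124 stayed within their counting interval, 12 moved beyond it and 0 of the called ones changed sign. Of the 12, 11 were under deposited TPM and 1 under a prior count of 5. DESeq2 size factors and total counts moved 0, but they shift all genes nearly alike and so check little. Under deposited TPM, Adam1b, Adam22, Ctsf and Prss53 moved among the called members, and Gzma and Mmp23 did not.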

Other observations

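Among the kallikreins with few reads, Klk13 had 13 reads in Spib_KO and 2 in WT, and Klk14 had 18 reads in Spib_KO and 7 in WT. Adam8, a metalloprotease known from leukocytes, had 20 reads in Spib_KO and 58 in WT, a log2 ratio of -1.45 (-2.28 to -0.71).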
